A study of Mus musculus with 12 samples.

Results

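The 3 Period genes, Per1, Per2 and Per3, were followed in mouse embryonic fibroblasts through their mRNA and through the binding of BMAL1 around them. They were chosen by name, as 3 of the 23420 genes of the mRNA count table, together with every BMAL1 region within 50 kb of the start that the count table gives each gene. That distance took in 11 of 4740 regions, 9 around Per1 and 1 each at Per2 and Per3. All 12 libraries came from cells of the 129/sv background labelled per1 -/-, per2 -/-, nr1d1 -/- and nr1d2 -/-, and all carried a PER2-ER transgene. The 6 groups of 2 libraries were mRNA, BMAL1 ChIP and ChIP input, each from cells that received 0.1% EtOH or 1 µM 4-OHT (4-hydroxytamoxifen) for 4 h. EtOH is the solvent and serves as the control, so the control cells carry the 4 knockouts and the transgene too. The labels do not say which promoter drives the transgene, which part of each gene was deleted or whether the 2 libraries of a group came from separate cultures, so a p-value here speaks only to the spread among the libraries sequenced. Cells without the transgene were not analysed here.

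PER proteins are repressors of the circadian clock. The activators CLOCK and BMAL1 bind E-box sequences near the Period genes and drive their transcription, and PER proteins, together with CRY proteins, return to the nucleus and inhibit that activity, which closes a daily loop. Per1 and Per2 also carry elements for other signals, such as cAMP and CREB, and D-boxes are read by the PAR bZIP activators DBP, TEF and HLF and by the repressor NFIL3. An ER fusion usually joins a protein to the ligand-binding part of the estrogen receptor, for which 4-OHT is a ligand, and the series addresses how PER2 acts on BMAL1 binding and transcription across the genome.

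The sequences below are the 250 bases before 3 annotated starts of Per1 and Per3, shown because each lies wholly inside a BMAL1 region described further on. They are from RefSeq, build GRCm38.p6 (the build also called mm10), and read along the strand of the gene. The first lies at chr11:69098699-69098948 (plus strand), the next at chr11:69099902-69100151 (plus strand) and the last at chr4:151044666-151044915 (minus strand). Capitals mark matches to CACGTG (E-box), TTATGNAA (D-box) and TGACG (the core of a CREB site), searched on both strands.
Per1: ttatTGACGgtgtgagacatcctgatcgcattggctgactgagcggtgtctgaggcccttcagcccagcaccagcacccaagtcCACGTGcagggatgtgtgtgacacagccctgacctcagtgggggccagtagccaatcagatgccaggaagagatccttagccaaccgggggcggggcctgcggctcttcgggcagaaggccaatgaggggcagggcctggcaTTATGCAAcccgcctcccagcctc
Per1, downstream start: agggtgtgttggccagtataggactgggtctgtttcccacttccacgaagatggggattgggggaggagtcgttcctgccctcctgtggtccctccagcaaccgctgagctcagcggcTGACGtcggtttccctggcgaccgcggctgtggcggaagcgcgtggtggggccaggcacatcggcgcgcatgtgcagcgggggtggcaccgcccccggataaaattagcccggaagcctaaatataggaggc
Per3: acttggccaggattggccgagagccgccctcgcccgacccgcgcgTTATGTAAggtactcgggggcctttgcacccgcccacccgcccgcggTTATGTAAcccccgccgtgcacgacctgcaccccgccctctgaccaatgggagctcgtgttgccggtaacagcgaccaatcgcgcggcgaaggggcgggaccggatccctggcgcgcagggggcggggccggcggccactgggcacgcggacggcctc
In the first Per1 sequence the E-box begins 166 bases before the start, the D-box TTATGCAA 24 bases before it and TGACG 246 bases before it. The sequence at the downstream Per1 start held TGACG 132 bases before that start and neither of the other motifs. The Per3 sequence held TTATGTAA at 205 and at 158 bases before the start, and no CACGTG was found in those 250 bases. Over 32851 RefSeq promoter windows, 6.02% had CACGTG in the 250 upstream bases, 3.07% had TTATGNAA and 17.8% had TGACG. Among the 347 windows that lie inside a BMAL1 region of this series the shares were 58.2%, 1.44% and 36.3%. GC content was 62.0%, 64.0% and 72.4% in the order of the sequences. No promoter of Per2 was in the table. The outermost RefSeq start of Per1, at base 69095108 of chromosome 11, lies 3848 bp upstream of the start in the count table.

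The mRNA libraries held 60267540 to 89695667 counted reads. The BMAL1 ChIP libraries held 13502201 to 20712373 reads and the inputs 12481308 to 33454366. Of the fibroblast markers, 7 of 8 were expressed highly enough to be tested. None was called changed by edgeR's quasi-likelihood test (2 at an unadjusted p below 0.05, 0 by DESeq2), where 2.44% of all tested genes were. Their summed level was 26842 to 29119 CPM (counts scaled to the reads of the library) with EtOH and 27402 to 29277 CPM with 4-OHT. Thy1, the remaining one, was at 0 in all 4 libraries. The endothelial markers summed to 0.0502 to 0.0884 CPM with Cdh5 and Tie1 at 0, the immune markers to 2.96 to 3.28 CPM with the macrophage gene Emr1 at 0, and the muscle markers to 0.660 to 1.06 CPM with Myod1 at 0. Epithelial markers summed to 11.9 to 13.4 CPM with EtOH and 13.9 to 16.1 CPM with 4-OHT. Nearly all of this was Cdh1, with means of 12.5 and 14.8 CPM. Its change was not called by edgeR (log2 0.24, adjusted p = 0.244) or by DESeq2. Neural markers summed to 3.36 to 3.58 CPM with EtOH and 4.55 to 5.20 CPM with 4-OHT, with Gfap at 0. The rise was in Tubb3, a neuronal tubulin (log2 0.49, edgeR adjusted p = 0.0142), and DESeq2 did not call it, nor did edgeR without EtOH library 1 (0.54), EtOH library 2 (0.45) or 4-OHT library 2 (0.39). The part of these markers in the results was not tested.

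After 4 h of 4-OHT, Per3 mRNA stood at 72.0% of its EtOH level, while no change in Per1 or Per2 mRNA was detected. BMAL1 signal at the strongest region of each of the 3 genes was 5.80-fold to 6.75-fold lower in the same comparison. In bulk libraries such as these, fewer cells of a kind and less RNA per cell cannot be told apart. The count of a gene adds up all its exons, so the counts at Per1, Per2, Nr1d1 and Nr1d2 do not check the labelled knockouts, and reads of the PER2-ER transgene cannot be told apart from those of Per2.

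Per3 (chr4:151003655-151044622, minus strand, 21 exons) encodes the PER protein whose loss is known to disturb the clock least. Its level was 24.0 and 24.6 CPM in the EtOH libraries and 17.4 and 17.6 CPM in the 4-OHT libraries, from 1214 to 1709 reads a library. Both 4-OHT libraries lay below both EtOH libraries, and each pair of replicates was close together (24.3 ± 0.427 and 17.5 ± 0.102 CPM, SD, n = 2). The log2 change was -0.47 (SE 0.08, 95% interval -0.64 to -0.31), a 1.39-fold fall, with an adjusted p of 7.84e-05 (edgeR's quasi-likelihood test, adjusted over 13216 tested genes by Benjamini-Hochberg). In that test 2.44% of genes were called in either direction and 1.63% were called lower, and 1 of the 3 Period genes was called, in the lower direction. By log2 change its fall ranked 241 of the 13216 tested genes. The authors' deposited DESeq2 table gave Per3 a log2 fold change of -0.34 (SE 0.07) with an adjusted p of 2.29e-05. DESeq2 as run here on the deposited counts gave -0.48, so the 2 DESeq2 estimates are not on a like footing. Why they differ was not tested.

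Per1 (chr11:69098956-69109957, plus strand, 24 exons), a gene that light and hormones induce rapidly in many tissues, was at 42.2 and 36.7 CPM with EtOH and at 38.1 and 45.4 CPM with 4-OHT. The 2 groups overlapped, since the lower 4-OHT library lay between the EtOH libraries. Means were 39.5 ± 3.85 and 41.7 ± 5.14 CPM (SD, n = 2), and the log2 change was 0.08 (SE 0.08, 95% interval -0.08 to 0.24) with an edgeR adjusted p of 0.850. On the fold scale that interval runs from 0.944 to 1.18.

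Per2 (chr1:91415982-91459328, minus strand, 23 exons), whose protein is the one fused to ER in the transgene, was at 567 and 550.4 CPM with EtOH and at 552 and 609 CPM with 4-OHT. These groups overlapped as well, and the means were 559 ± 11.5 and 581 ± 40.03 CPM (SD, n = 2). The log2 change was 0.06 (SE 0.06, 95% interval -0.07 to 0.18) with an edgeR adjusted p of 0.880, and the interval on the fold scale runs from 0.951 to 1.14. Counts of 32909 to 55079 reads a library lay behind these values, so sampling error was small beside the spread between libraries. In the authors' deposited table, the log2 fold changes were 0.05 for Per1 and 0.04 for Per2, both with an adjusted p of 0.999.

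**Figure D1:**
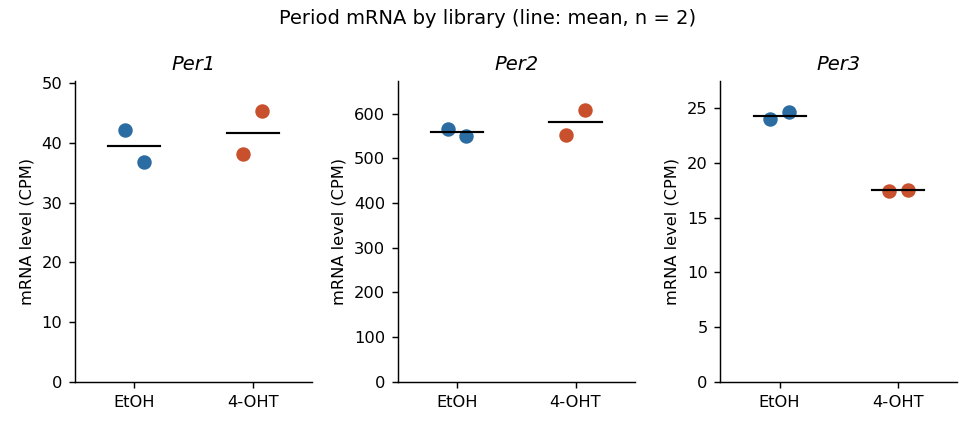
mRNA level of Per1, Per2 and Per3 in CPM (y axis, from 0, with its own scale in each panel) in the EtOH and 4-OHT libraries; each dot is 1 library and each line a mean of 2. The Per3 dots with 4-OHT (17.4 and 17.6 CPM) lie below those with EtOH (24.0 and 24.6 CPM), while the dots of the 2 groups overlap for Per1 and Per2.

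The difference in change between genes was set against the 4 libraries directly, in 3 pairs. The log2 change of Per1 exceeded that of Per3 by 0.55 and that of Per2 exceeded it by 0.53, each with p = 0.33 (0.50 after Benjamini-Hochberg adjustment) by a two-sided exact permutation test. That is the smallest p that 2 against 2 libraries allow. Per1 and Per2 differed in log2 change by 0.02 (exact p = 0.67, adjusted 0.67). In both 4-OHT libraries the ratio of Per1 or Per2 to Per3 was above that of either EtOH library. Per kb of exon, Per2 was 24.1 and 22.8 times Per3 with EtOH and 32.3 and 35.4 times Per3 with 4-OHT. These Per2 values can include transgene reads. Per1 was 2.23 and 1.89 times Per3 with EtOH and 2.77 and 3.27 times with 4-OHT.

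The 3 genes stood at very different levels. On the scale of CPM per kb of exon, Per2 was at 97.1 and 94.3 with EtOH and reached 94.6 and 104 with 4-OHT. This was the highest of 17 clock genes compared, and above 94.9% of the tested genes. The Per2 count can include reads of the PER2-ER transgene, so it does not give the level of the Per2 gene itself. The next in order, the repressor gene Bhlhe40, was at 32.0 and 28.8 with EtOH, well outside the Per2 range. Per1 was ninth, at 8.98 and 7.82 with EtOH and 8.11 and 9.65 with 4-OHT, above 42.8% of tested genes. It lay below Nfil3 (14.4 and 12.5 with EtOH) and above Gm129 (6.32 and 5.23 with EtOH), the older symbol of the repressor gene Ciart, and in the 4-OHT libraries its range overlapped that of Gm129 (7.11 and 8.28). Per3 was twelfth, at 4.03 and 4.14 with EtOH and 2.93 and 2.95 with 4-OHT, above 29.5% of tested genes. With EtOH it stood between Cry2 (4.44 and 4.30) and Npas2 (3.68 and 3.81), a partner of BMAL1, in each case with a small gap and no overlap. With 4-OHT it fell into the range of Arntl2 (2.88 and 3.13), the paralog of the BMAL1 gene.

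Every Period region held less BMAL1 signal after 4-OHT. Values are reads of a library in a region per 10000000 reads of that library (RP10M), and 93.8% of all 4740 regions were called lower on this scale by edgeR's quasi-likelihood test, so the 11 of 11 calls at the Period genes are near the background. The regions were called on EtOH-treated cells, as their deposited names show, so sites bound only after 4-OHT could not be among them. That choice also favours lower values with 4-OHT, so the counts of falls are not independent of how the regions were called.

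The strongest Per1 region, called Per1 region 1 here, lies between genes at chr11:69094548-69095702, 3254 bp upstream of the start in the count table, and holds the outermost RefSeq start of Per1. Its BMAL1 signal was 1881 and 1785 RP10M with EtOH and 290.4 and 332 RP10M with 4-OHT. By signal with EtOH it ranked seventh of all 4740 regions. The Per2 region (chr1:91458543-91459894) covers the Per2 start, ranked eighth, and was at 1777 and 1749 RP10M with EtOH and at 289 and 317 RP10M with 4-OHT. The EtOH and 4-OHT libraries were far apart at both sites, and the values of Per1 and Per2 lay close to each other in every library. The Per3 region (chr4:151044115-151045106), which covers the Per3 start and holds the printed Per3 sequence, ranked 35th. It was at 631 and 667 RP10M with EtOH and at 85.9 and 104 RP10M with 4-OHT, again without overlap.

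The log2 changes were -2.55 at Per1 region 1 (SE 0.10, edgeR adjusted p = 1.82e-135), -2.54 at Per2 (SE 0.10, edgeR adjusted p = 3.37e-133) and -2.76 at Per3 (SE 0.12, edgeR adjusted p = 3.19e-112). As folds these are 5.87, 5.80 and 6.75, and the signal left with 4-OHT was 17.0%, 17.2% and 14.6% of that with EtOH. Pairs of regions were compared in log2 of RP10M plus 1. The change at Per3 was more negative by 0.21 than at Per1 region 1 and by 0.23 than at Per2. Each had p = 0.33 (adjusted 0.46 over 11 pairs of regions) by a two-sided exact permutation test over the 4 libraries. Per1 region 1 and the Per2 region differed by 0.02 (exact p = 0.67, adjusted 0.73). In both 4-OHT libraries the ratio of Per1 region 1, or of the Per2 region, to the Per3 region was above that of either EtOH library, and 2 against 2 libraries cannot show that the 3 falls are alike. With the input change subtracted the estimated falls were further apart, at 9.72-fold for Per3, 5.59-fold for Per1 region 1 and 4.25-fold for Per2. The 95% intervals of these log2 changes overlap (-4.02 to -2.54, -3.15 to -1.81 and -2.83 to -1.34). The input log2 changes were 0.49, -0.06 and -0.44 in the same order, none of them called. At Per3 the 4-OHT input held only 4 and 54 reads.

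**Figure D2:**
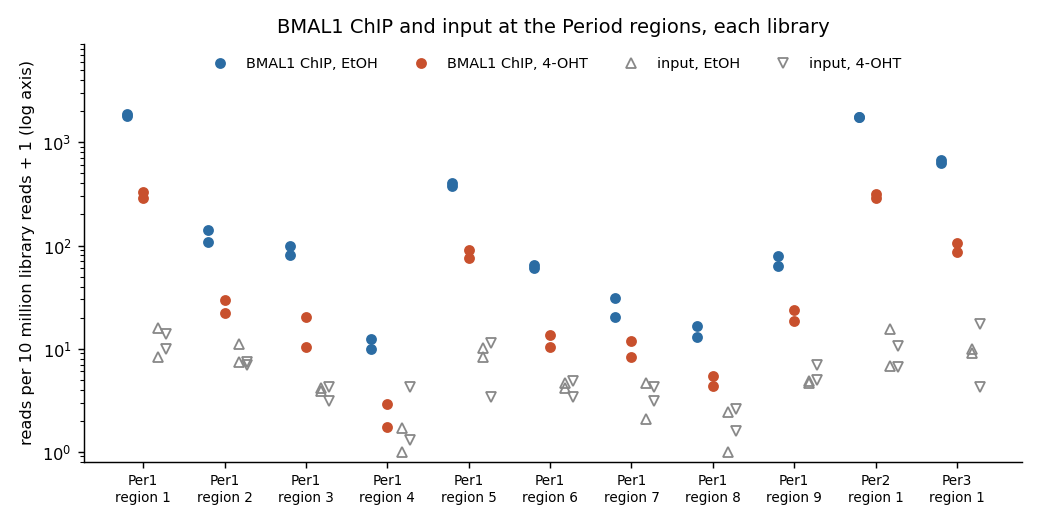
BMAL1 ChIP signal (filled dots) and input signal (open triangles) at the 11 Period regions, in RP10M plus 1 on a log axis, 1 symbol for each library. The 4-OHT dots lie below the EtOH dots at every Period region, where 93.8% of all 4740 regions were called lower. At Per1 region 4 the 4-OHT dots reach the level of the inputs.

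Around Per1, 8 further regions lay within 50 kb. The next strongest, Per1 region 5 (chr11:69098355-69099359), covers the start in the count table and holds the first printed Per1 sequence with its E-box. It was at 376 and 399 RP10M with EtOH and at 74.2 and 89.8 RP10M with 4-OHT, a log2 change of -2.22 (SE 0.13; 4.67-fold). Per1 region 2 (chr11:69096663-69097447) went from 141 and 107 to 21.1 and 28.5 RP10M, and Per1 region 3 (chr11:69097514-69097839) from 97.0 and 80.5 to 9.46 and 19.3 RP10M. Both lie between the strongest region and the start, and fell 4.85-fold and 5.79-fold. Per1 region 6 (chr11:69099900-69100261), which is 944 bp into the gene and holds the sequence of the downstream start, went from 63.7 and 60.1 to 9.46 and 12.6 RP10M, a 5.46-fold fall. Per1 region 4 (chr11:69098146-69098288) was the weakest, with 12 and 20 reads in the EtOH libraries and 1 and 4 reads in the 4-OHT libraries. Its log2 change of -2.76 has an SE of 0.61 and a 95% interval of -3.95 to -1.57, so its size is poorly known.

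The other 3 regions lie 19 to 26.4 kb downstream of the Per1 start and are nearer to the starts of other genes. Per1 region 7 (chr11:69117957-69118186), between genes and 2267 bp from the start of Hes7, a repressor of the segmentation clock, was at 29.6 and 19.3 RP10M with EtOH and at 10.9 and 7.24 RP10M with 4-OHT. Per1 region 8 (chr11:69122718-69122865), in an exon of Hes7, was at 15.6 and 11.9 against 4.37 and 3.38 RP10M. Per1 region 9 (chr11:69125380-69126035), 342 bp from the start of Aloxe3, an epidermal lipoxygenase gene, was at 77.8 and 62.4 against 22.6 and 17.4 RP10M. The groups did not overlap at any of the 3, where 93.8% of all regions were called lower. Their falls were 2.72-fold, 3.53-fold and 3.54-fold. The signal left was 28.2% to 37.1% here and 13.1% to 21.2% at the 6 regions near the Per1 start. The value of 13.1% is that of region 4, with 1 and 4 reads in the 4-OHT libraries. With the input change subtracted, the log2 changes were -1.76, -1.72 and -2.32 at regions 7, 8 and 9. At the 6 regions near the start they ran from -3.89 to -1.95, so on that scale the ranges overlapped. In log2 of RP10M plus 1, the change at Per1 region 1 less that at regions 7, 8 and 9 was -1.23, -0.97 and -0.79. Each had an exact permutation p of 0.33 (adjusted 0.46), the smallest p this design allows. The added 1 shrinks the falls of weak regions and so widens these differences. In the edgeR fit the log2 change was -2.55 at region 1 and -1.44, -1.82 and -1.83 at regions 7, 8 and 9. Most Per1 reads came from the strongest region, which held 69.9% and 70.4% of the BMAL1 reads of the 9 Per1 regions with EtOH and 65.5% and 64.8% with 4-OHT.

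**Figure D3:**
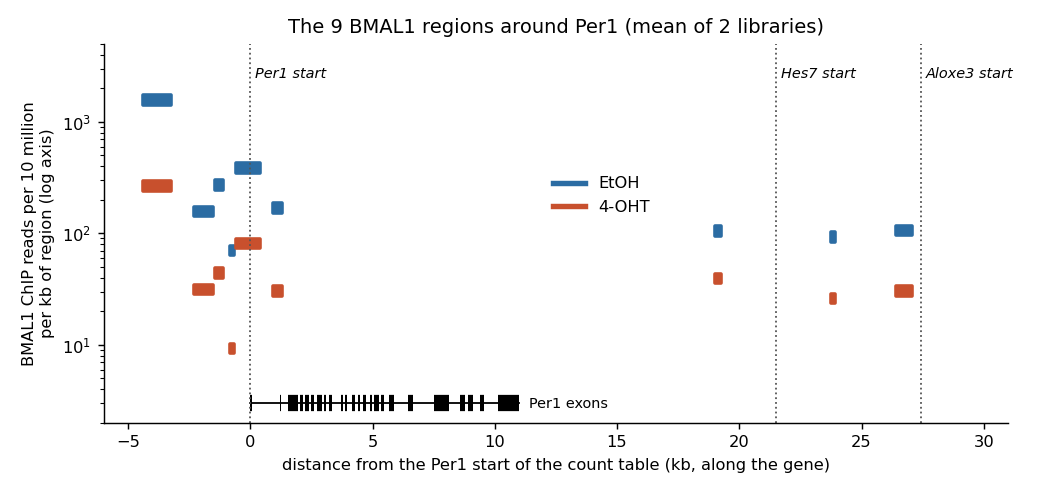
BMAL1 ChIP signal per kb of region (log axis, mean of 2 libraries) at the 9 Per1 regions, drawn at their distance from the start in the count table, with the Per1 exons below; dotted lines mark the starts of Per1, Hes7 and Aloxe3. The region around 4 kb upstream stands highest, at 1587 RP10M per kb with EtOH, and the gap between EtOH and 4-OHT is narrower at the 3 regions on the right.

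To ask how these falls compare with those of the other regions, the counts were also fitted with TMM factors computed over the regions, which set the bulk of the regions to about 0. The median log2 change of all regions was -1.66 with library totals (a 3.17-fold fall) and 0.02 with TMM factors. On the relative scale 4.81% of regions were called lower and 1.39% higher, and 5 of the 11 Period regions were called lower and 0 higher by edgeR's quasi-likelihood test. These were the strongest regions of Per3 (-1.06, SE 0.11), Per1 (-0.85, SE 0.09) and Per2 (-0.83, SE 0.09), Per1 region 3 (-0.84, SE 0.24, adjusted p = 0.0133) and Per1 region 5 (-0.53, SE 0.12, adjusted p = 0.000847). The call at region 3 was lost without EtOH library 1 (-0.78), without EtOH library 2 (-0.90), without 4-OHT library 1 (-0.54) and with DESeq2 (-0.87), and that at region 5 without EtOH library 2 (-0.40) or 4-OHT library 1 (-0.46). Regions 2, 4 and 6 had values of -0.58, -1.12 and -0.76 that did not pass (edgeR adjusted p = 0.0522, 0.389 and 0.112). Regions 7, 8 and 9, at 0.24, -0.15 and -0.13, were near the bulk of the regions, with 95% intervals that span 0.

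A stronger relative fall was also seen at most other strong regions. Of the 100 regions with the most signal with EtOH, 89 were called lower and 6 higher on the relative scale. Their median log2 change with library totals was -2.36 (quartiles -2.53 and -2.22), beside -2.45 for the 11 Period regions and -2.49 for the 6 near the Per1 start. The 100 were picked on the same EtOH libraries that enter the change. That choice favours larger falls among them, so these counts are not an independent test. Among all regions 1.37% had a more negative change than the Per3 region, 3.46% than the Per2 region and 3.19% than Per1 region 1. Of all BMAL1 reads in regions, the Period regions held shares of 1.94% and 2.01% with EtOH, and shares of 1.19% and 1.25% with 4-OHT. Their share was 0.262% to 0.398% in the inputs.

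**Figure D4:**
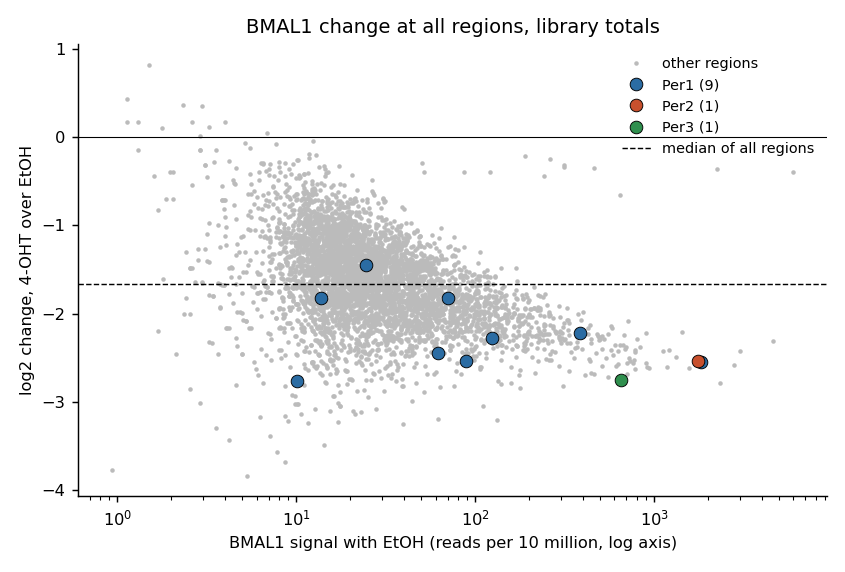
Log2 change in BMAL1 signal with library totals (y axis) against signal with EtOH (x axis, log) at all 4740 regions, with the Period regions in colour and the median of all regions (-1.66) as a dashed line. Per1 region 1, Per2 and Per3 lie among the other strong regions at the right, below the dashed line; 1 Per1 region lies above it.

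All 11 Period regions were above input with EtOH, where 99.5% of all regions were, and this count is not independent of how the regions were called. With 4-OHT 10 of 11 were above input, against 80.6% of all regions. Per1 region 1 stood 149-fold over input in EtOH cells and 26.6-fold over it in 4-OHT cells, Per2 152-fold and 35.8-fold, and Per3 75.3-fold and 7.75-fold. At the Per1 start (region 5) the values were 45.0-fold and 10.1-fold. BMAL1 signal thus remained above input at the main sites of all 3 genes after 4-OHT. The exception was Per1 region 4, at 1.29-fold over input with 4-OHT (edgeR adjusted p = 0.718), where only 5 ChIP reads and 5 input reads were counted.

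The inputs themselves gave 0 calls among the Period regions and 0 among all regions by edgeR, with 0 and 218 at an unadjusted p below 0.05, and input signal at the 3 strongest regions was 3.20 to 16.1 RP10M in every library. With the input change subtracted, 9 of 11 Period regions remained lower, where 50.5% of all regions did. Per1 region 7 (-1.76, edgeR adjusted p = 0.0551) and Per1 region 8 (-1.72, edgeR adjusted p = 0.211) did not pass. At Per3 the subtracted change was -3.28 (SE 0.37), at Per1 region 1 -2.48 (SE 0.34) and at Per2 -2.09 (SE 0.37).

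Other clock repressors and partners of PER changed in both directions. Of 8 genes, 5 rose and 2 fell by edgeR's quasi-likelihood test, in which 0.802% of all tested genes were called higher and 1.63% lower, and their median log2 change was 0.36 beside 0.00 over all tested genes. Those that fell were Nr1d1 (-1.63) and Nr1d2 (-1.24), which encode the REV-ERB repressors and are labelled knocked out in these cells. Cry1 rose by 0.74 (SE 0.07) and Cry2 by 0.68 (SE 0.08), the genes of the proteins that bind PER in the repressor complex. Bhlhe41 (0.54), Gm129 (0.41) and Bhlhe40 (0.31), repressors that act on E-boxes, rose too, and Nfil3, at 0.03, did not pass. The call of Gm129 was lost without EtOH library 2 (0.29), without 4-OHT library 2 (0.30) and with DESeq2, that of Bhlhe40 without EtOH library 2 (0.23) and that of Bhlhe41 without EtOH library 1 (0.50). Cry1 mRNA rose while BMAL1 at its start went from 1565 to 254 RP10M (log2 -2.61), a fall like that at Per1 region 1 and Per2. At the strongest region within 10 kb, the BMAL1 log2 change was -2.42 for Nr1d1 and -2.59 for Nr1d2, whose mRNA fell. For Cry2, Bhlhe40, Bhlhe41 and Gm129, whose mRNA rose, it was -2.79 to -2.49.

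For genes that act on PER proteins the counts were 0, near the background of 2.44% of all tested genes called in either direction. None of 10 PER kinases and phosphatases was called (1 at an unadjusted p below 0.05; 0 by DESeq2), nor any of 6 ligases and deubiquitinases of PER and CRY (0 and 0) or of 13 proteins known in PER complexes on chromatin and RNA (0 and 0), by edgeR's quasi-likelihood test. The median log2 changes of these lists were -0.03, 0.03 and -0.02. The clock activators, 6 tested of 7, had no call (2 at an unadjusted p below 0.05; 0 by DESeq2) and a median of -0.03. Arntl, the gene of BMAL1 itself, was at 54.3 and 57.1 CPM with EtOH and 56.4 and 58.5 CPM with 4-OHT (log2 0.05, SE 0.07, edgeR adjusted p = 0.918). No fall in BMAL1 mRNA was detected, and its relation to the lower BMAL1 signal at the Period genes was not tested. BMAL1 protein was not measured in these libraries.

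Among 10 output genes of CLOCK and BMAL1, 2 rose by edgeR's quasi-likelihood test and none fell, beside 0.802% and 1.63% of all tested genes, with a median log2 change of 0.17. They were Hlf (0.94, SE 0.18) and Tsc22d3 (0.67, SE 0.07), a glucocorticoid-induced gene. Hlf, whose protein reads D-boxes, was at a low level of 0.970 and 0.987 CPM with EtOH and 1.78 and 1.96 CPM with 4-OHT. Within 10 kb of their starts in the count table, 3 BMAL1 regions lay near Hlf and none near Tsc22d3. DESeq2 did not call Hlf, and it called Tef (0.22), another gene of a D-box reader, which edgeR did not (adjusted p = 0.0531 by edgeR and 0.0415 by DESeq2). Of 9 immediate early genes of CREB and SRF, the pathways that act on Per1 outside the clock, 2 rose, Junb (0.35) and Ier2 (0.25), where 0.802% of all tested genes did, and the median was -0.01. Without 4-OHT library 2 the value of Junb was 0.22 and that of Ier2 0.13, neither of them called. Ier2 was also not called without EtOH library 1 (0.29), without EtOH library 2 (0.20) or with DESeq2. Of 5 tested glucocorticoid receptor targets, only Tsc22d3 was called. Esr1, the estrogen receptor gene, was at 188 ± 6.71 and 196 ± 1.09 CPM (SD, n = 2; log2 0.06, not called), a count in which transgene reads cannot be told apart.

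**Figure D5:**
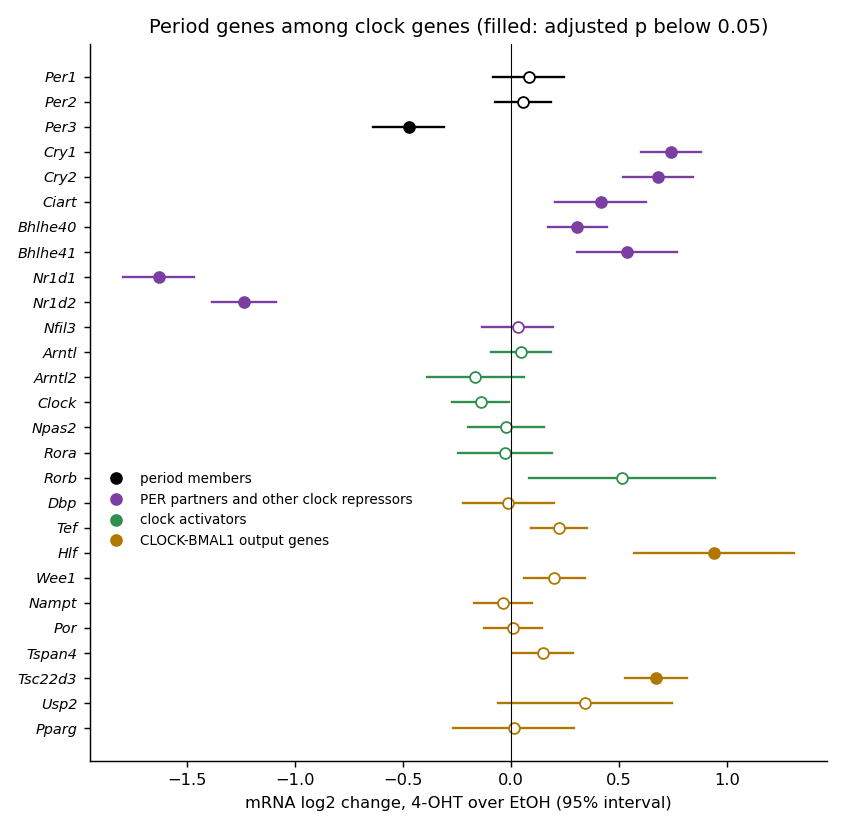
Log2 change in mRNA, 4-OHT over EtOH, with 95% intervals, for the Period genes, other clock repressors, clock activators and output genes; filled symbols passed an adjusted p of 0.05 in edgeR. Per3 (-0.47) lies left of 0 with Nr1d1 and Nr1d2, Per1 and Per2 lie close to 0, and Cry1 and Cry2 lie to the right.

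The genes next to the Period genes were read for comparison, since regions can lie near several starts. Of 9 genes whose starts lie within 50 kb of a Period start, 7 were tested and 0 called by edgeR (2 at an unadjusted p below 0.05, 0 by DESeq2). That is near the background, in which 2.44% of all tested genes were called in either direction. Vamp2, whose start is at -10.4 kb from that of Per1, had a log2 change of 0.05, and Vamp3, at -13.3 kb from that of Per3, of 0.00. Both encode vesicle fusion proteins. Aloxe3, beside Per1 region 9, was at 0.703 and 0.937 CPM with EtOH and at 0.531 and 0.575 CPM with 4-OHT, a log2 change of -0.55 (unadjusted p = 0.0349, edgeR adjusted p = 0.428). The remaining tested neighbours were 2310047M10Rik (0.24), Tmem107 (0.09), Hes6 (0.04) and Traf3ip1 (-0.08). Hes7 was expressed too weakly to be tested, and Uts2, near Per3, was at 0 in all 4 libraries.

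Likeness to each Period gene was measured over the 4 mRNA libraries. The measure was the root mean square difference in log2 of CPM plus 1, each gene centred on its own mean. Nearest to Per3 were Kank1 (difference 0.01, log2 change -0.46), Mylk (0.02, -0.44), the smooth muscle myosin light chain kinase gene, and Errfi1 (0.02, -0.45), a feedback inhibitor gene of EGFR, and only 40 tested genes lay within 0.05 of it. Nearest to Per1 were Adamtsl4, Tigd5 and Mrpl4, among 531 within 0.05, and nearest to Per2 were 2700081O15Rik, Cyp2s1 and Sars2, among 2614. The count for Per2 shows how common a nearly flat pattern over 4 libraries is on this scale. It includes weakly expressed genes, whose changes the added 1 flattens. Cyp2s1, for example, was at 0.220 CPM with EtOH and 0.261 CPM with 4-OHT, a log2 change of 0.27 in the edgeR fit (not called). For BMAL1 signal, uncentred and over the 4 ChIP libraries, the region most like Per1 region 1 was the Per2 region (difference 0.05), followed by regions near Hlf (26886 bp from its start) and at Gm129, both at 0.26. Nearest to Per2 after Per1 were the regions near Hlf and at Cry1, both at 0.22. The regions most like that of Per3 were at Srm (0.12), the spermidine synthase gene, at Ankrd12 (0.13) and 8722 bp from Phf17 (0.16).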

How the data were processed

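Per the file headers, the authors used featureCounts v1.5.0-p1 to count reverse-stranded mRNA reads in the exons of a UCSC mm10 annotation. No aligner is named in the sources used here, and bedtools 2.25.0 and DESeq2 are named in the submitters' processing notes. The deposited region files give counts of reads per region and library, beside a fold enrichment, −log10 p and q values and a score by the authors for the EtOH peaks, not used in tests. The deposited signal table equals 5 plus reads per 10000000 library reads, not divided by length although named RPKM, which gave each library total. The authors' deposited DESeq2 table holds log2 fold changes, p-values, a mean signal and a test score.

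The tests used edgeR 4.0.16 under R 4.3.3 (robust quasi-likelihood fits on all genes or regions, Benjamini-Hochberg adjustment, calls at an adjusted p below 0.05), with TMM factors for mRNA (0.992 to 1.01) and library totals for regions. CPM used the summed counts times these factors. Intervals are 95%. Levels per kb divide CPM by summed exon length. DESeq2 1.42.0, no filter or a filter of 10 mean reads, TMM over regions, input subtraction, a replicate block, left-out libraries and windows of 10 and 100 kb were alternatives. The tests were checked on simulated data. Motifs were searched in RefSeq promoter windows of build GRCm38.p6; Emr1 is Adgre1 in that table. The members, gene lists and tests were chosen with earlier results of these data known. The genes named were the Period genes and their regions, called members of fixed lists, neighbours within 50 kb and the 3 most alike genes or regions. Uncalled genes named to place these, such as Arntl, Esr1, Nfil3, Tef and those next in level, were chosen after their values were seen.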

Additional observations from a re-analysis of the deposited data

How the results depend on the processing

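The fall of Per3 mRNA was called under each alternative run, with log2 values of -0.46 to -0.49. Per1 and Per2 were called under none of them, and their signs were not stable: leaving out 1 library gave -0.052 to 0.20 for Per1 and -0.015 to 0.12 for Per2. Counts over all genes moved. With DESeq2, 62 genes were higher in place of 106, and leaving out 1 library gave 40 to 196 higher and 140 to 247 lower genes in place of 216. In such fits the library left alone in its group is assumed to vary like those of the other group.

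The replicate numbers did not pair the libraries: deviations of same-numbered libraries correlated at -0.17 for mRNA, 0.02 for BMAL1 ChIP and 0.01 for input. With the replicate block 60 genes were higher and 152 lower, Ier2 was no longer called (0.24), and 4377 regions were lower with all 11 Period regions among them. A crossed pairing of the mRNA libraries, added after seeing the data, gave 518 higher and 611 lower genes.

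The fall of BMAL1 depended on the scaling. In place of 4445 lower regions and 11 Period regions, TMM factors over the regions gave 228 and 5, DESeq2 with its own size factors 141 and 4, and subtraction of the input change 2395 and 9. With TMM Per1 region 7 turned to 0.24. TMM sets the bulk of the regions to about 0, which by construction removes a shift that most regions share. On the relative scale DESeq2 called 141 regions lower and 13 higher in place of 228 and 66. Leaving out 1 ChIP library gave 145 to 186 lower, 18 to 54 higher and 3 to 5 Period regions lower, the lowest without EtOH library 2 or 4-OHT library 1. In these fits Per1 region 7 ran from -0.073 to 0.63, Per1 region 8 from -0.35 to 0.13 and Per1 region 9 from -0.35 to 0.14.

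Against input, TMM gave 375 regions and 4 Period regions above input with EtOH, with Per1 region 7 at -0.10, and 232 and 4 with 4-OHT, with Per1 regions 4, 6, 7 and 9 at -1.47, -0.21, -0.044 and -0.054. TMM gave 1 input call in place of 0 and put the input change at Per1 region 6 at -0.081 in place of 0.062. The filter of 10 mean reads left out Per1 region 4. The window took in 8 regions at 10 kb and 11 at 100 kb. Intervals cover counting error and the spread of 2 libraries a group, and the weak Per1 regions 4, 7 and 8, with 1 to 40 ChIP reads a library, are measured least well.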
